A study of Mus musculus with 24 samples.

Results

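The genes described here encode the complement components and the clotting factors of blood plasma, with their inhibitors, most of which the liver makes and secretes. They were named as a list of 40 gene symbols, 16 for complement and 24 for clotting factors and inhibitors, and for each the probe set with the brightest mean signal over all arrays was read. Of the 40 genes, 37 were measured among the 18194 genes of the array, 14 on the complement side and 23 on the clotting side. C3 and Cpb2 had no annotated probe set of their own and C4b shared its probe set with C4a, so these 3 genes are not analysed here. The study gave male B6C3F1 mice, which were 7 to 10 weeks old on arrival and had at least 5 days to acclimatise, di(2-ethylhexyl) phthalate (DEHP) at 1150 mg/kg/day by oral gavage (10 ml/kg, every 24 h for 3 days). DEHP is a plasticiser that activates the nuclear receptor PPARα in rodent liver. Control mice received the vehicle, corn oil, by the same route and in the same volume. Liver RNA labelled as taken at 2, 8, 24 and 72 h was measured on 24 Affymetrix arrays, 3 for DEHP and 3 for corn oil at each time. The labels do not say whether these times count from the first dose. Between times, the hour of sampling and the number of doses therefore cannot be told apart. The design text speaks of 6 mice, and whether a group's arrays come from separate animals is not stated, so p-values measure only the spread between these arrays.

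Complement is a cascade of plasma proteases that marks particles for uptake and ends in a pore, the membrane attack complex. Mannose-binding lectins or the C1 complex start it, C2 and factor B form the enzymes that split C3, and the terminal components assemble into the pore. Clotting is a second plasma cascade, in which proteases, several of them modified with the help of vitamin K, activate thrombin, and thrombin turns fibrinogen into fibrin. Protein C, protein S and antithrombin restrain it, and plasmin dissolves the clot. Hepatocytes transcribe these genes under HNF1, HNF4, C/EBP and FOXA factors, and several of them rise in the acute phase response to interleukin 6.

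All values are log2 signals as the authors deposited them, and a difference of 1 on that scale is a 2-fold change. DEHP was compared with corn oil at each time in 1 limma model of the 8 groups, and a gene was called at an adjusted p under 0.05 (Benjamini-Hochberg over 18194 genes). The 10 hepatocyte markers had mean signals of 12.52 to 14.45, against array medians of 6.46 to 6.55, and the 37 genes had mean signals of 8.84 to 14.07. The response to DEHP was present at every time: Cyp4a14, a PPARα target that hydroxylates fatty acids, was higher by 4.44, 3.92, 4.86 and 5.70 at 2, 8, 24 and 72 h. Acot1 and Ehhadh, which act in fatty acid metabolism, were called higher at all 4 times, by 3.07 to 4.02 and by 1.93 to 3.02, Pdk4 at 2 h and 8 h, by 4.96 and 5.97, and Cyp2b10 at 8 h and 72 h, by 5.13 and 1.47. Several arrays stood apart before any comparison. Corn oil replicate 2 at 8 h had an Actb 3′ minus 5′ signal of 1.46, against at most 0.82 on the other 23 arrays, and corn oil replicate 1 at 72 h had acute phase genes 1.37 above their mean over all arrays. Exocrine pancreas markers lay 1.52 to 3.16 above their mean over all arrays on 4 arrays, DEHP replicate 1 and corn oil replicate 2 at 2 h and replicate 1 of both groups at 72 h. Corn oil replicate 1 at 2 h followed with 0.87 and corn oil replicate 1 at 8 h with 0.29, and the other 18 arrays lay below 0.

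DEHP lowered complement and clotting genes at 8 h and 72 h. At 8 h, 11 of the 37 genes were called lower and none higher, against 2.86% of all genes called lower and 1.28% called higher. At 72 h, 17 were called lower and none higher, against 3.05% and 1.13% of all genes. The median difference of the 37 genes was −0.23 at 8 h and −0.33 at 72 h, beside −0.02 and −0.03 for all genes. All 37 differences lay below 0 at both times, whereas 57.4% of all genes at 8 h and 57.7% at 72 h did. Of the 3903 genes at or above the lowest mean signal among the 37, 6.92% were called lower at 8 h and 6.92% at 72 h, and 66.1% and 70.7% lay below 0. In whole liver, fewer cells of a type and less RNA per cell cannot be told apart.

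The other times gave few calls. At 2 h, 1 gene was called higher (0.616% of all genes were) and none lower (0.214% of all genes), and 6 genes had an unadjusted p under 0.05. The median at 2 h was 0.04, and 15 of the 37 differences lay below 0, against 56.8% of all genes and 52.2% of the 3903. At 24 h, 1 gene was called lower and none higher, against 0.044% and 0.253% of all genes, although the median was −0.24 and 36 of the 37 differences lay below 0 (51.1% of all genes and 47.5% of the 3903 did). The 3 DEHP arrays all lay below the 3 corn oil arrays for 24 of the 37 genes at 24 h, against 7.47% of all genes, and above them for 1, against 6.38%. Such separation held for 20 genes at 8 h (13.1% of all genes) and for 33 at 72 h (18.1% of all genes). At 2 h, 4 genes were separated downwards (6.72% of all genes) and 5 upwards (4.67% of all genes). Averaged over the 4 times, 22 genes were called lower and none higher, against 4.42% and 1.98% of all genes.

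**Figure D1:**
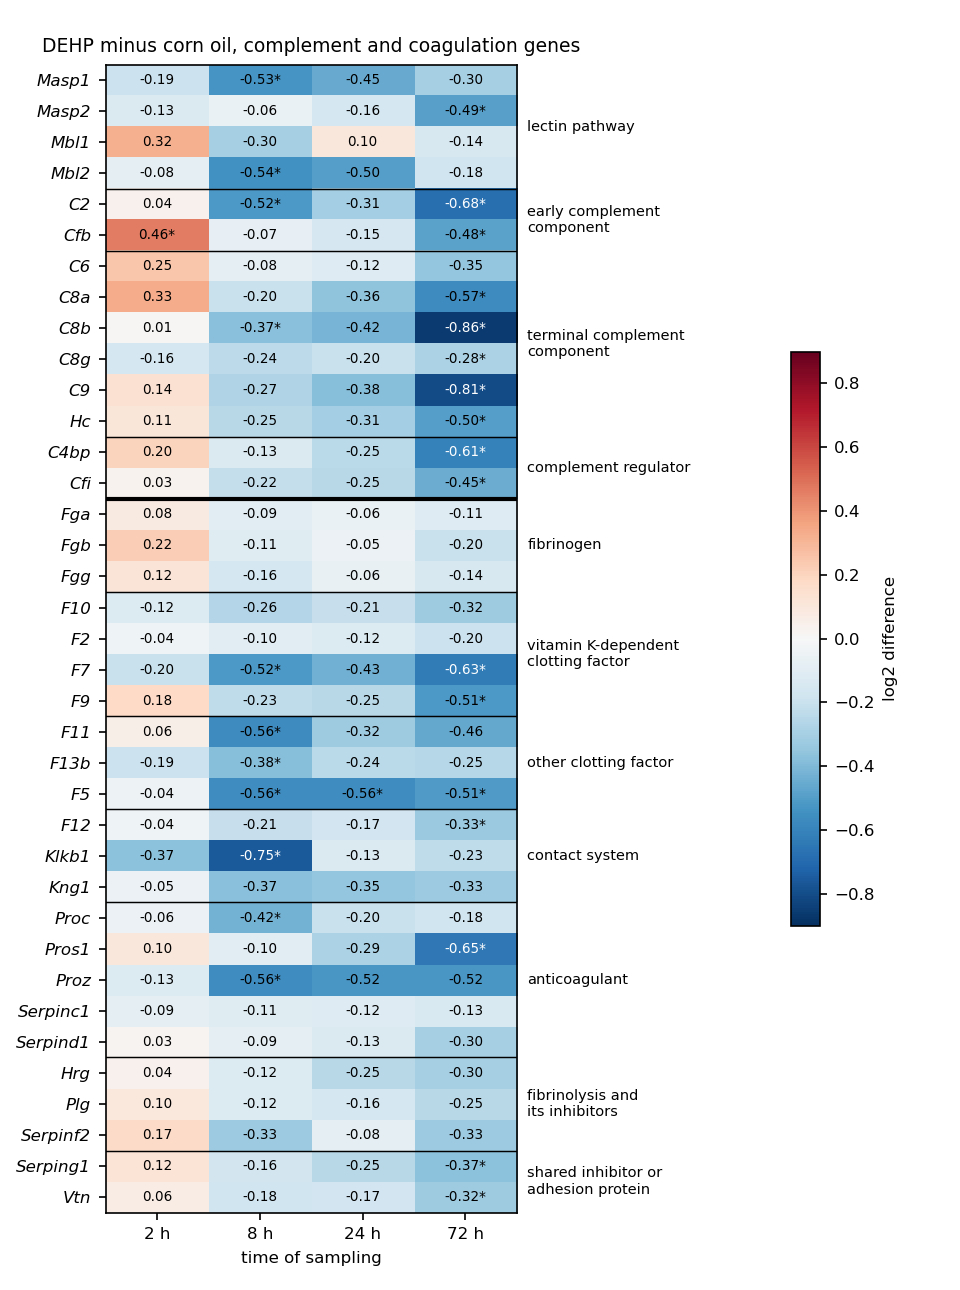
Heat map of the log2 difference, DEHP minus corn oil, for the 37 genes (rows, grouped by role, complement above the thick line and clotting below it) at 2, 8, 24 and 72 h (columns, 3 arrays per group). An asterisk marks an adjusted p under 0.05. The columns for 8 h and 72 h hold only negative values, and the deepest value is −0.86 for C8b at 72 h.

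The counts at 8 h and 72 h changed with single arrays. Without corn oil replicate 2 at 8 h, 7 genes were called at 8 h, and F11, F13b, Proz and C8b were no longer among them. Leaving out DEHP replicate 3 or replicate 1 at 8 h left 4 and 6 calls. Without corn oil replicate 1 at 72 h, 12 genes were called at 72 h, and Serping1, Pros1, Vtn, Hc and C8a were lost. Leaving out DEHP replicate 2 or replicate 3 at 72 h left 7 and 9 calls. In a fit without the 4 arrays highest in pancreas markers, 7 genes were called at 72 h, and 7 also when corn oil replicate 1 at 2 h was left out with them. At 8 h, 6 genes were called with each array centred on its median and 4 with the Actb 3′ minus 5′ signal as a covariate. Klkb1, Proc, C2 and Masp1 stayed called at 8 h whichever of the 6 arrays of that time was left out, and F9, C2, C8b, C9, Cfi and C4bp did so at 72 h. At 8 h the calls of F13b, Proz and C8b were each kept in 1 of these 6 fits, and that of F7 in 3. At 72 h the calls of Hc and C8g were each kept in 1 of 6, and that of C8a in 3.

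C8b and C9, terminal components of complement that build the membrane attack complex, had the deepest falls at 72 h. C8b, the β chain of C8, had signals of 11.19, 10.98 and 11.23 on the DEHP arrays at 72 h, against 11.92, 11.94 and 12.13 on the corn oil arrays. Every DEHP array lay well below every corn oil array, and the fall was 0.86 (SE 0.11, adjusted p = 5.65e-05), which is 45.0% lower. At 8 h C8b gave 11.72, 11.88 and 11.70 with DEHP, against 12.10, 12.07 and 12.25 with corn oil. These groups did not overlap either, and C8b was called lower by 0.37 (adjusted p = 0.0492). At 24 h the signals were 11.79, 11.65 and 11.69 with DEHP and 12.15, 12.20 and 12.03 with corn oil. The difference of −0.42 was again larger than the gap within either group but did not pass (adjusted p = 0.144). At 2 h DEHP arrays gave 12.15, 11.97 and 11.99 and corn oil arrays 11.88, 12.31 and 11.88, so the groups overlapped.

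C9, the subunit that polymerises into the wall of the pore, gave 12.73, 12.43 and 12.51 with DEHP at 72 h, against 13.44, 13.22 and 13.42 with corn oil. The groups were separate, with a fall of 0.81 (SE 0.12, adjusted p = 6.1e-04), which is 42.8% lower. At 2 h the DEHP arrays gave 13.61, 13.37 and 13.46 and the corn oil arrays 13.25, 13.50 and 13.27, which overlapped. C8a, the α chain of C8, fell by 0.57 at 72 h (adjusted p = 0.019), with 11.95, 11.80 and 12.01 on the DEHP arrays and 12.71, 12.18 and 12.57 on the corn oil arrays. C8g, the γ chain, fell by 0.28 (adjusted p = 0.0362), and Hc, which encodes C5, by 0.50 (adjusted p = 0.0342). C6 was the exception among the 6 terminal genes at 72 h, with −0.35 and an adjusted p of 0.105. The chains of C8 are secreted as 1 complex, and whether their falls differ in size was not tested.

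C8a and C8b are neighbours on mouse chromosome 4 in RefSeq, with no protein-coding gene between them. The 250 bases upstream of their starts, with those of C9, are shown because these 3 genes had the largest terminal falls (RefSeq, build GRCm38.p6, 5′ to 3′ on the gene's strand). Capitals mark letters that match any of 6 motifs spelled out further on.
C8b, chr4:104766067-104766316, plus strand: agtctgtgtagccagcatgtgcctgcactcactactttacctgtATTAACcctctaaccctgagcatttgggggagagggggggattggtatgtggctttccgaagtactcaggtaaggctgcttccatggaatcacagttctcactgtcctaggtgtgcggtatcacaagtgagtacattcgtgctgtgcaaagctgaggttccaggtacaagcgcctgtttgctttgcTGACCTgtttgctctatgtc
C8a, chr4:104876399-104876648, minus strand: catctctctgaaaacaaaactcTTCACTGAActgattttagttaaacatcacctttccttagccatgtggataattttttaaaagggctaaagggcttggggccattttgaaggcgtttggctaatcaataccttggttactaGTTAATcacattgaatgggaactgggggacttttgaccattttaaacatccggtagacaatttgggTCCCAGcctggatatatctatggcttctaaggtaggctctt
C9, chr15:6445096-6445345, plus strand: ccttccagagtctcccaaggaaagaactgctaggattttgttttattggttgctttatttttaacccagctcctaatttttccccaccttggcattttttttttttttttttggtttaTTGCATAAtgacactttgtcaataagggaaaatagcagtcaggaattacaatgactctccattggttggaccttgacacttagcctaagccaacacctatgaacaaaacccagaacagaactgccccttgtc
C8a and C8b both hold the HNF1 core motif, at 107 and 206 bases before the start, and C9 holds the C/EBP pattern.

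Among the early components, C2 fell at 8 h and 72 h, while Cfb was higher at 2 h and lower at 72 h. C2 is the protease of the classical and lectin pathway convertase, and factor B, from Cfb, has that role in the alternative pathway. The genes are neighbours on chromosome 17 with no protein-coding gene between them. C2 gave 10.33, 10.48 and 10.37 on the DEHP arrays at 8 h, against 10.79, 10.89 and 11.04 on the corn oil arrays. At 72 h it gave 10.19, 10.01 and 10.33 with DEHP, against 10.89, 10.74 and 10.93 with corn oil. The groups were separate at both times, and C2 fell by 0.52 at 8 h (SE 0.11, adjusted p = 0.00552) and by 0.68 at 72 h (SE 0.11, adjusted p = 8.72e-04). Both other probe sets of C2 gave values of the same sign at these times.

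Cfb gave 12.79, 12.49 and 12.81 with DEHP at 2 h, against 12.18, 12.22 and 12.32 with corn oil. All DEHP arrays lay above all corn oil arrays, and Cfb was called higher by 0.46 (SE 0.10, adjusted p = 0.0356). This call was kept in only 1 of the 6 fits that leave out an array of that time, with differences of 0.40 to 0.56. At 8 h Cfb differed by −0.07 and the groups overlapped. At 72 h Cfb gave 12.09, 12.03 and 11.98 with DEHP, against 12.75, 12.41 and 12.39 with corn oil. Every DEHP array was lower there, and the fall was 0.48 (adjusted p = 0.0119). C2 at 2 h differed by 0.04, so both neighbours were called at 72 h, Cfb alone at 2 h and C2 alone at 8 h.

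Both measured regulators of complement fell at 72 h. Cfi, the protease that cuts C3b and C4b, fell by 0.45 (SE 0.080, adjusted p = 0.00339). C4bp, the plasma protein that helps factor I cut C4b, fell by 0.61 (SE 0.12, adjusted p = 0.00748). Neither was called at another time. In the lectin pathway the calls came at different times. Masp1 and Mbl2, a protease and a lectin of the recognition complex, fell at 8 h by 0.53 (adjusted p = 0.0048) and 0.54 (adjusted p = 0.0106). At 72 h they differed by −0.30 and −0.18 and were not called. Other probe sets of Masp1 gave −0.42, −0.13, −0.22 and −0.16 at 8 h and, in that order, −0.47, −0.20, −0.14 and −0.36 at 72 h. The probe sets of Masp1 thus disagree on which of these times was lower. Masp2, the protease that cuts C4 and C2, differed by −0.06 at 8 h and fell by 0.49 at 72 h (adjusted p = 0.01). Another probe set of Masp2 gave −0.47 at 8 h, so the probe sets of this gene disagree in size at that time. Mbl1 was called at no time and, at 24 h, gave the single positive difference among the 37 genes, 0.10.

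**Figure D2:**
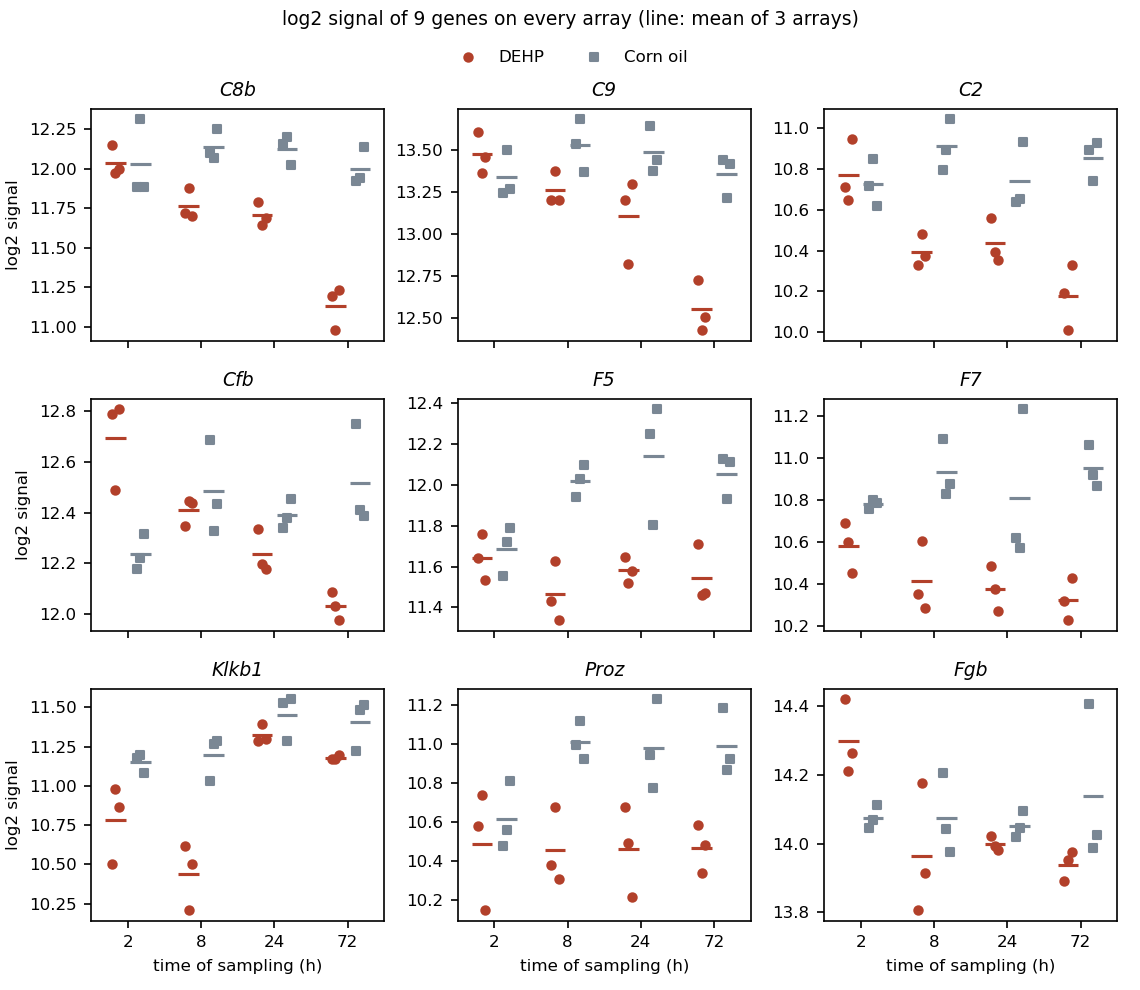
log2 signal (vertical axis) of C8b, C9, C2, Cfb, F5, F7, Klkb1, Proz and Fgb on every array at 2, 8, 24 and 72 h, with DEHP as red circles to the left of corn oil as grey squares and a line at the mean of the 3 arrays. C8b at 72 h lies between 10.98 and 11.23 with DEHP and between 11.92 and 12.13 with corn oil, and Klkb1 is well separated at 8 h, with DEHP at 10.21 to 10.62 and corn oil at 11.03 to 11.29.

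Among the clotting factors, F5 was called lower at 3 times and F7 at 2 times. F5 encodes factor V, the cofactor that speeds thrombin formation. On the DEHP arrays F5 gave 11.43, 11.63 and 11.34 at 8 h, against 11.94, 12.03 and 12.10 on the corn oil arrays. At 24 h it gave 11.65, 11.52 and 11.58 with DEHP, against 12.25, 11.81 and 12.37 with corn oil. At 72 h it gave 11.71, 11.46 and 11.47 with DEHP, against 12.13, 11.93 and 12.11 with corn oil. The groups were separate at these 3 times, and F5 fell by 0.56 at 8 h (adjusted p = 0.00718), by 0.56 at 24 h (adjusted p = 0.0372) and by 0.51 at 72 h (adjusted p = 0.0188), each with an SE of 0.12. Its second probe set gave −0.54, −0.51 and −0.40. The call at 24 h was kept in 1 of 6 fits without an array of that time, that at 8 h in 5 and that at 72 h in 3.

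F7 encodes factor VII, which starts clotting when it meets tissue factor. It gave 10.35, 10.60 and 10.28 with DEHP at 8 h, against 11.09, 10.83 and 10.88 with corn oil. At 72 h the signals were 10.32, 10.23 and 10.43 with DEHP and 11.06, 10.92 and 10.87 with corn oil. No DEHP array reached a corn oil array at either time, with falls of 0.52 (SE 0.13, adjusted p = 0.0233) and 0.63 (SE 0.13, adjusted p = 0.00903). At 2 h the DEHP arrays also lay below the corn oil arrays, by 0.20, but the difference did not pass (adjusted p = 0.754). Of the other vitamin K-dependent factors, F9, the factor IX of the intrinsic pathway, fell by 0.51 at 72 h (adjusted p = 0.00754). F10, for factor X, differed by −0.26 at 8 h and −0.32 at 72 h (adjusted p = 0.147 and 0.064), and F2, for prothrombin, by −0.10 and −0.20. F7, F10 and Proz are neighbours on chromosome 8 with no protein-coding gene between them. In the probe sets used, all 3 lay below 0 at every time. Another probe set lay above 0 for F10 at 2 h (0.07), and for Proz at 2 h (0.01) and 8 h (0.06).

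Proz encodes protein Z, a vitamin K-dependent cofactor for an inhibitor of factor Xa. It gave 10.38, 10.68 and 10.31 with DEHP at 8 h, against 10.99, 11.12 and 10.92 with corn oil. At 24 h it gave 10.67, 10.49 and 10.21 with DEHP, against 10.94, 10.77 and 11.23 with corn oil. The groups were separate at both times. Proz fell by 0.56 at 8 h (SE 0.15, adjusted p = 0.035), while its difference of −0.52 at 24 h did not pass (adjusted p = 0.263). The probe sets of Proz disagree in sign at 8 h, where the other gave 0.06. At 72 h the probe set used gave −0.52, which did not pass (adjusted p = 0.0502), and the other gave −0.62. Proc, for the anticoagulant protease protein C, fell by 0.42 at 8 h (SE 0.070, adjusted p = 7.01e-04). Its signals then were 12.12, 12.17 and 12.13 with DEHP, against 12.48, 12.67 and 12.54 with corn oil. Proc also differed between 8 h and 2 h within corn oil, where it was higher by 0.30 at 8 h (adjusted p = 0.0161), and within DEHP it differed by −0.07. Pros1, the cofactor protein S, fell by 0.65 at 72 h (adjusted p = 0.0413) and was called in 1 of the 6 fits without an array, with −0.78 to −0.39. Serpinc1 (antithrombin) and Serpind1 (heparin cofactor II) were called at no time.

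Klkb1, which encodes plasma prekallikrein of the contact system, had the deepest fall at 8 h. Its signals were 10.62, 10.21 and 10.50 with DEHP, against 11.03, 11.27 and 11.29 with corn oil. The groups were far apart, with a fall of 0.75 (SE 0.12, adjusted p = 4.46e-04), which is 40.7% lower. Already at 2 h the DEHP arrays gave 10.50, 10.98 and 10.86, against 11.17, 11.20 and 11.08 with corn oil. These were separate, but the difference of −0.37 did not pass (adjusted p = 0.245). At 24 h the DEHP arrays gave 11.29, 11.39 and 11.30 and the corn oil arrays 11.53, 11.28 and 11.55, so the groups overlapped. Within DEHP, Klkb1 was 0.88 higher at 24 h than at 8 h (adjusted p = 3e-05). The change of the DEHP effect between these times, 0.63, did not pass (adjusted p = 0.122). F12, for factor XII, fell by 0.33 at 72 h (adjusted p = 0.0144), and Kng1, for kininogen, differed by −0.37, −0.35 and −0.33 at 8, 24 and 72 h with no call.

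F11, for factor XI, lies next to Klkb1 on chromosome 8, with no protein-coding gene between them. F11 gave 9.10, 9.78 and 9.21 with DEHP at 8 h, against 9.57, 9.91 and 10.30 with corn oil. DEHP replicate 2 lay above the lowest corn oil array, and the fall was 0.56 (SE 0.16, adjusted p = 0.0458), kept in 2 of 6 fits without an array. F13b, the carrier subunit of factor XIII, fell by 0.38 at 8 h (adjusted p = 0.046). The upstream bases of Klkb1 and F11 are shown because these neighbours were both called at 8 h, and those of Fgb because fibrinogen was not called.
Klkb1, chr8:45294836-45295085, minus strand: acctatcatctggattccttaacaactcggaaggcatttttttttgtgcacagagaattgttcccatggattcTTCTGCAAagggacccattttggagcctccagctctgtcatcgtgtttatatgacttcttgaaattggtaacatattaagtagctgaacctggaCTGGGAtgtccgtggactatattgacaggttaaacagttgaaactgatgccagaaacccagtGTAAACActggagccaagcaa
F11, chr8:45262032-45262281, minus strand: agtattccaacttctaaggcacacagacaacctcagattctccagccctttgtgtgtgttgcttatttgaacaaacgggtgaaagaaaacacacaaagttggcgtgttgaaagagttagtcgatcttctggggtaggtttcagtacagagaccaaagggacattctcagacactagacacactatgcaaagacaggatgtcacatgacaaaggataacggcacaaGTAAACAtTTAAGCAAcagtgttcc
Fgb, chr3:83049864-83050113, minus strand: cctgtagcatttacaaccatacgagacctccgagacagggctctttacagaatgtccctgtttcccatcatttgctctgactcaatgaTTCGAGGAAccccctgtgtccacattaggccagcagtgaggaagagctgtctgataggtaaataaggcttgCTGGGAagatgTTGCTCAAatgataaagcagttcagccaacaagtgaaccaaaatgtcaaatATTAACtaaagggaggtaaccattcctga
Klkb1 and F11 were the 2 genes with the FOXA motif among the 29 of the list that were searched, and each also holds the C/EBP pattern, as Fgb does.

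Fibrinogen was called at no time. Fga, Fgb and Fgg, neighbours on chromosome 3, encode its 3 chains, and they differed by 0.08 to 0.22 at 2 h, by −0.16 to −0.09 at 8 h and by −0.20 to −0.11 at 72 h. Fgb gave 14.42, 14.21 and 14.26 with DEHP at 2 h, against 14.04, 14.07 and 14.11 with corn oil. All 3 DEHP arrays were higher, but the difference of 0.22 (SE 0.10) did not pass (adjusted p = 0.552). At 72 h Fgb gave 13.89, 13.95 and 13.97 with DEHP, against 14.41, 13.99 and 14.02 with corn oil, and the difference was −0.20 (adjusted p = 0.262). The high corn oil array is replicate 1, which had the raised acute phase genes. Plg, Serpinf2 and Hrg, which encode plasminogen, the main plasmin inhibitor and a plasminogen-binding protein, were called at no time, with −0.25, −0.33 and −0.30 at 72 h. Serping1, the C1 inhibitor, which also blocks kallikrein, fell by 0.37 at 72 h (adjusted p = 0.0391), a call lost in each of the 6 fits without an array. Vtn, for vitronectin, which binds terminal complement complexes, fell by 0.32 (adjusted p = 0.0215) and was kept in 2 of 6.

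Set side by side, complement held a larger share of the calls at 72 h than clotting. At 72 h, 10 of 14 complement genes and 7 of 23 clotting genes were called lower, with medians of −0.49 and −0.32. At 8 h the counts were 4 of 14 and 7 of 23, with medians of −0.24 and −0.21. At 24 h they were 0 of 14 and 1 of 23, with medians of −0.28 and −0.20. Of the complement genes, 9 had an unadjusted p under 0.05 then. On the clotting side F5, F7, F9, F10, F12, F13b, Kng1, Plg, Serping1, Proc, Proz, Hrg and Vtn did. At 2 h, 1 of 14 complement genes was called higher and 0 of 23 clotting genes, of which 2 had an unadjusted p under 0.05, and the medians were 0.07 and 0.03. The complement minus clotting difference in medians was 0.05, −0.03, −0.08 and −0.17 at 2, 8, 24 and 72 h. Whether the sides differ was not tested. When 1 array was left out, the difference was −0.21 to −0.13 at 72 h and lay on both sides of 0 at 8 h, at −0.11 to 0.020. Without corn oil replicate 1 at 72 h, 8 complement and 4 clotting genes were called at 72 h, and without the 4 arrays highest in pancreas markers 5 and 2. Without corn oil replicate 2 at 8 h, 3 complement and 4 clotting genes were called at 8 h.

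**Figure D3:**
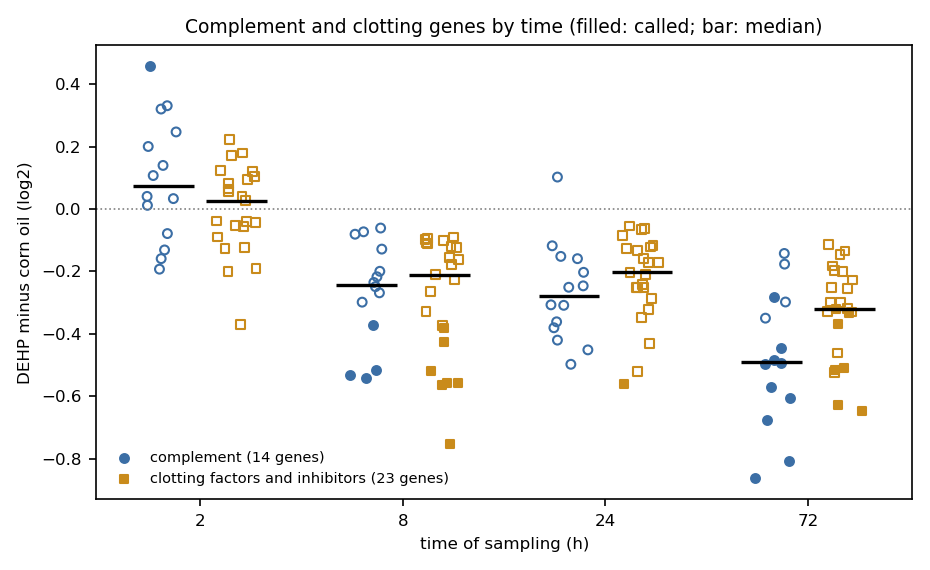
log2 difference, DEHP minus corn oil (vertical axis), of each complement gene (blue circles, 14 genes) and each clotting gene (ochre squares, 23 genes) at 2, 8, 24 and 72 h, filled where the adjusted p is under 0.05, with a black bar at the median. At 72 h the complement median is −0.49 and the clotting median −0.32, and the deepest values, for C8b and C9, are complement.

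C2, C8b, F5 and F7 were called lower at both times, which is 36.4% of the 11 calls at 8 h and 23.5% of the 17 at 72 h. In that order, their 8 h calls were kept in 6, 1, 5 and 3 of the 6 fits without an array of that time. Their 72 h calls were kept in 6, 6, 3 and 5. These times share no arrays, but the model gives each gene the same SE at both, so the calls are not independent. Over all genes, 9.62% of the calls lower at 8 h and 9.01% of those at 72 h were shared, and 13.7% of both among the 3903 genes of like signal. The lowest of the 4 differences fell at 72 h for 26 of the 37 genes (70.3%, against 30.5% of all genes and 40.8% of the 3903) and at 8 h for 10 (27.0%, against 25.7% and 32.0%). The highest fell at 2 h for 35 (94.6%, against 27.1% and 34.7%). A test that the DEHP effect differs between times called C2, C8a, C8b, C9 and Cfb, against 2.08% of all genes, and 1 gene without the 4 arrays highest in pancreas markers. The effect at 72 h was compared with that at 2 h in a contrast added after the data were seen. It was more negative in 8 genes (C2, C4bp, C8a, C8b, C9, Cfb, Cfi and F9), against 1.74% of all genes, and 7 of these are among the 14 complement genes. Without corn oil replicate 1 at 72 h that count was 7, without the 4 arrays highest in pancreas markers 4, and with corn oil replicate 1 at 2 h left out as well 1. Effects at 8 h and 72 h differed in no gene after adjustment (0.879% of all genes were lower and 0.528% higher), with 9 genes at an unadjusted p under 0.05. In corn oil alone, the F test over the 4 times called no gene of the 37 (adjusted p = 0.0706 for Proc), against 3.55% of all genes, with 8 at an unadjusted p under 0.05. In DEHP alone, 13 did, against 10.2% of all genes.

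Genes of the same pathways outside the 37 were read next. Of 10 other complement components measured, 5 were called lower at 72 h and none at 2, 8 or 24 h, when 0, 2 and 3 had an unadjusted p under 0.05. C1s1 and C1ra, the proteases of the C1 complex, fell by 0.63 (adjusted p = 4.52e-04) and 0.38 (adjusted p = 0.00815). C1qa and C1qc, chains of C1q that macrophages make, fell by 0.79 and 0.86 (adjusted p = 0.0465 and 0.0415), and Cfp, for properdin of myeloid cells, by 0.68 (adjusted p = 0.0445). Of these 10 genes, 2 were called at 72 h without corn oil replicate 1 of that time, 5 without that array and corn oil replicate 2 at 8 h, and 2 without the 4 arrays highest in pancreas markers. Of 13 other regulators and receptors, Cpn2, a subunit of the carboxypeptidase that inactivates C3a and C5a, fell by 0.53 at 8 h and 0.41 at 72 h, and Cfhr2, a factor H-related protein, fell by 0.51 and Cd59a, a membrane inhibitor of the pore, by 0.35 at 72 h. Of 22 other genes of coagulation and fibrinolysis, many of which other cell types express, none was called at any time. Their medians lay between −0.06 and 0.01, with 2, 0, 1 and 6 genes at an unadjusted p under 0.05 at 2, 8, 24 and 72 h. Their largest difference was that of Fgl1, a fibrinogen-like hepatocyte protein, with −1.30 at 72 h (adjusted p = 0.0607).

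Of 9 genes listed for the vitamin K cycle and for the secretion of clotting factors, Mcfd2 and Calu were called lower at 72 h, by 0.36 and 0.41. At that time 8 of the 9 lay below 0, with a median of −0.33, and 7 had an unadjusted p under 0.05. Mcfd2 encodes a cargo receptor subunit for factors V and VIII, and Calu a chaperone of the reticulum. At 8 h the only call in that list was Slc37a4, lower by 0.59, which encodes the glucose-6-phosphate transporter of the reticulum and has no known part in that cycle. Of 27 other proteins secreted by hepatocytes, none was called at 8 h, when 25 lay below 0, 10 had an unadjusted p under 0.05 and the median was −0.15, and 5 were called lower at 72 h (median −0.20). Over the mean of the 4 times, 10 of the 27 were called lower and 1 higher, with a median of −0.10. The larger of these falls were in Hgfac, an activator of hepatocyte growth factor, by 0.63, and Itih1, a hyaluronan-binding protein, by 0.55. Alb and Ttr differed by −0.03 and 0.00 at 72 h. Alb, at 14.40 to 14.51 on the arrays of that time, lay close to the highest deposited value, 14.55, with Fgb at 13.89 to 14.41, and whether such signals are compressed was not tested. Of 10 hepatocyte markers none was called lower at 8 h or 72 h, when 1 had an unadjusted p under 0.05 at 72 h, while Tat and Tdo2, enzymes of amino acid breakdown, were higher at 8 h. Over the mean of the times, the hepatocyte markers Cps1 and Fah, enzymes of the urea cycle and of tyrosine breakdown, were lower by 0.19 and 0.16 (adjusted p = 0.0168 and 0.00952).

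Transcription factors known to act on these genes were read as well. Of 23 measured, 5 were called lower at 8 h, Foxa3 by 1.00 (adjusted p = 0.00119), Stat3 by 0.69 (adjusted p = 0.0492), Stat5b by 0.55 (adjusted p = 0.00323), Rxra by 0.38 and Rela by 0.32. At 72 h Foxa3 fell by 0.92 (adjusted p = 0.00484) and Hnf4a by 0.46 (adjusted p = 0.0221), while the clock repressor Nr1d1 was 0.63 higher (adjusted p = 0.0327). Hnf4a differed by 0.17, −0.09 and −0.22 at 2, 8 and 24 h with no call, and Cebpa and Ppara were called at no time. Of 13 genes of interleukin 6 and growth hormone signalling, none was called at 2, 8, 24 or 72 h, with 2, 7, 4 and 4 at an unadjusted p under 0.05. The largest difference at 8 h was in Socs3, a feedback inhibitor of interleukin 6 signalling, with −1.16 (adjusted p = 0.147). Over the mean of the times, the receptor genes Il6ra and Ghr were lower by 0.53 and 0.32 (adjusted p = 0.0123 and 5.62e-04).

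Acute phase genes and macrophage markers were also lower with DEHP at 72 h. All 24 acute phase genes outside the list lay below 0 then, with a median of −0.69, and 4 were called lower. Among them, Saa1 and Saa2, which encode serum amyloid A, fell by 3.84 and fell by 3.95, Itih4, an inter-alpha inhibitor chain, by 0.73 (adjusted p = 0.0143) and Ahsg, for fetuin-A, by 0.26. Without corn oil replicate 1 at 72 h, 2 of the 24 were called. The mean of the 24 genes, centred over all arrays, was −0.83, −0.92 and −0.91 on the DEHP arrays at 72 h, against 1.37, −0.27 and −0.30 on the corn oil arrays. Without the high array, corn oil replicate 1, the median of the 37 genes at 72 h in the fit that also leaves out corn oil replicate 2 at 8 h was −0.32, and 12 genes were called. At 2 h Saa2 and Lbp, the lipopolysaccharide-binding protein, were higher by 4.21 and 1.45, and the acute phase means were 1.39, −0.07 and 1.12 with DEHP, against −0.48, −0.53 and −0.20 with corn oil. At 8 h, 15 of the 24 lay below 0 with a median of −0.05, and Saa4 alone was called, lower by 1.27 (adjusted p = 0.00483). The acute phase means at 8 h were 0.28, 1.00 and 0.34 with DEHP, against 1.27, 0.21 and 0.30 with corn oil, so the groups overlapped. The part of the acute phase in the differences of the 37 genes was not tested.

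All 10 macrophage markers lay below 0 at 72 h, with a median of −0.64, and Adgre1, Cd163, Cd5l and Cd68 were called lower, while none was without corn oil replicate 1 at 72 h, 8 were without corn oil replicate 2 at 8 h, and 6 were without both. Their mean was −0.42, −0.39 and −0.14 with DEHP, against 0.50, 0.05 and 0.42 with corn oil. At 8 h none of these markers was called or had an unadjusted p under 0.05, and the median was −0.02. Their means at 8 h were −0.06, 0.01 and 0.01 with DEHP, against 0.29, −0.53 and 0.27 with corn oil, and the low value is that of replicate 2, which had the Actb signal of 1.46. Without it, their median at 8 h was −0.32, with no call and 1 at an unadjusted p under 0.05. All 10 markers of sinusoidal endothelium also lay below 0 at 72 h, with a median of −0.40 and no call, 5 having an unadjusted p under 0.05. Stellate cell markers had a median of −0.20 with 1 called lower, and exocrine pancreas markers had no call at any time, nor an unadjusted p under 0.05. The part of these cell types in the differences at 8 h and 72 h was not tested.

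**Figure D4:**
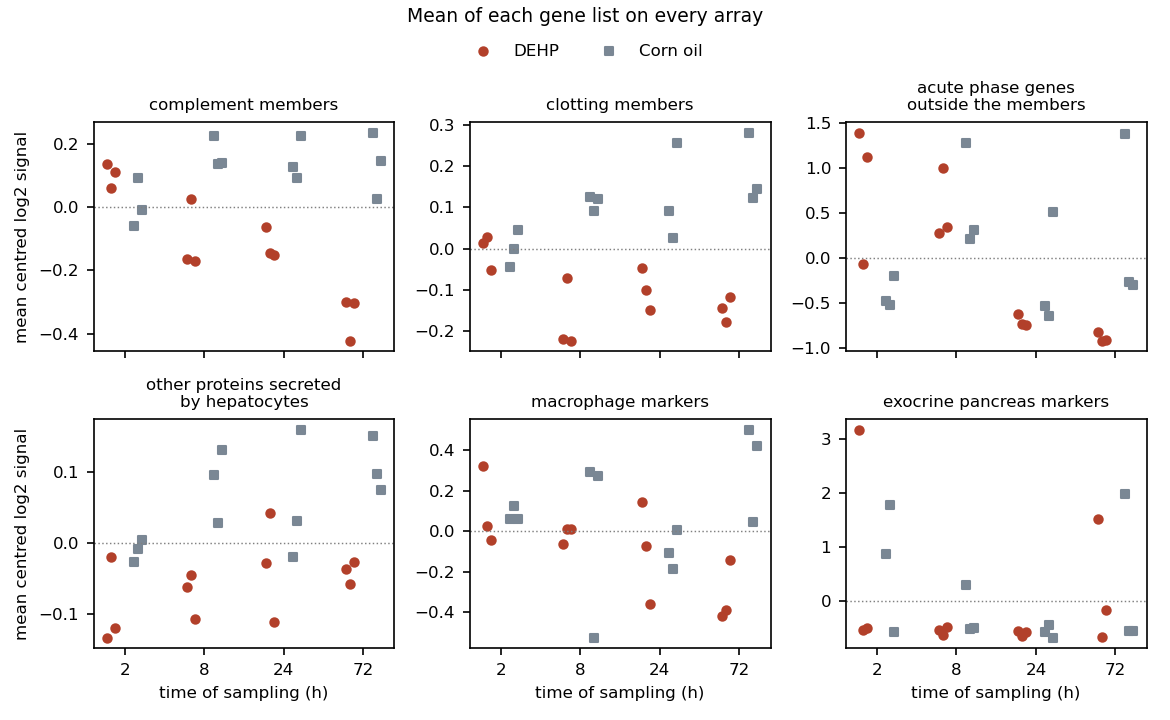
Mean log2 signal of 6 gene lists on every array, centred on each gene's mean over the 24 arrays (vertical axis), at 2, 8, 24 and 72 h, with DEHP as red circles to the left of corn oil as grey squares. Complement members at 72 h lie at −0.42 to −0.30 with DEHP and at 0.03 to 0.24 with corn oil, and corn oil replicate 1 at 72 h stands high for acute phase genes at 1.37.

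The upstream sequences shown above belong to a search of 29 of the 37 genes that had a RefSeq entry, over 250 bases before the start and on both strands, with motifs chosen after other motifs had been searched. A gene of the 29 counted if any of its entries matched, while over all genes only the first entry of each was read. The HNF1 core motif GTTAAT was in 31.0% of the 29 genes and in 6.52% of all 27025 upstream sequences, and its carriers include C8a, C8b, Hc, C4bp, Proz and all but Fgg of the fibrinogen genes. The C/EBP pattern TTGCNNAA was in 24.1%, against 9.55% of all. The nuclear receptor core motif TGACCT, a part of many HNF4 and PPAR elements, was in 31.0%, against 13.8%, with C8b, F5 and F7 among its carriers. The STAT pattern TTCNNNGAA was in 20.7%, against 7.18%, and the type II interleukin 6 element CTGGGA in 41.4%, against 26.8%. The FOXA motif TGTTTAC was in 6.90%, against 3.09%, in F11 and Klkb1. Fgb holds 4 of the 6 motifs and C8b holds 2, and whether motifs go with the differences was not tested. In the 6 sequences shown, no match overlapped another. These matches are letters in a window and show no binding.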

How the data were processed

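Liver RNA of 24 arrays of 45101 probe sets was analysed, 3 in each of 8 compound and time groups, taken from the sample titles and characteristics. The authors deposited log2 signals made with RMA, per the submitters' processing notes, which give no version; standard Affymetrix labelling was used per the labels. The deposited values range from 2.84 to 14.55. No detection calls were used, and the number of arrays limits the precision.

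Probe sets were joined to symbols through the platform annotation given with the series: 34958 carried 1 symbol, 932 several, and 9211 had no row. For each of 18194 genes the probe set of highest mean on the 24 arrays was read, a rule that mattered for 8 of the 37 genes described. R 4.3.3 and limma 3.58.1 fitted the 8 group means with empirical Bayes variances (16 residual and 6.21 prior degrees of freedom). DEHP was set against corn oil at each time, and F tests asked for differences between times; Benjamini-Hochberg adjustment ran over all genes, with calls under 0.05. On data simulated like the 8 h comparison (18194 genes), the model recovered 64% of 50 genes lowered by 0.5 and 94% of 50 lowered by 1.

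The 37 genes and the other lists were chosen with earlier results of these data known, so no list is independent evidence. Every gene of the list could be named. Of other lists, called genes of 0.5 or more were named, at most 6 per list and time, or else the gene with the largest difference, with a few checks; a call below 0.5 that is named was chosen after its value was seen. Values on every array are given for genes called at 2 or more times and for the 2 largest differences at each time, and for Proc, C8a and Fgb by choice after the values were seen. Of 39 alternatives, 3 were added after the values were seen: a fit without corn oil replicate 2 at 8 h and corn oil replicate 1 at 72 h, a fit without the 4 arrays highest in pancreas markers, and a fit that also leaves out corn oil replicate 1 at 2 h, whose lone remaining corn oil array at 2 h is assumed to vary like the other groups.

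Groups share replicate numbers. The deviations of same-numbered DEHP and corn oil arrays correlated with r of −0.35 to 0.14, so the numbers were not taken to pair the arrays.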

Additional observations from a re-analysis of the deposited data

Results flagged for a closer look

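The effect of DEHP differed between the 4 times in C2, C8a, C8b, C9 and Cfb by the F test of limma's model (adjusted p = 0.0377, 0.0389, 0.0131, 0.0208 and 0.00627). All 5 genes are complement genes. The effect at 72 h minus that at 2 h was −0.72 in C2, −0.90 in C8a, −0.87 in C8b, −0.95 in C9 and −0.94 in Cfb on the log2 scale. For C2 and C8b the effect at 2 h was near 0, at 0.04 and 0.01, while C8a (0.33) and Cfb (0.46) had all 3 DEHP arrays above the corn oil arrays at 2 h, although only Cfb was called. The number of such genes was 2 to 8 when 1 array was left out, 3 without corn oil replicate 2 at 8 h and corn oil replicate 1 at 72 h, and 1 without the 4 arrays highest in pancreas markers.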

How the results depend on the processing

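No called gene turned direction under the 39 alternatives to the fit described. Many of these cannot change a difference at a single time, so its sign was fixed there. Such alternatives leave out arrays of other times, add a replicate block or use a variance trend. Those that keep only genes above the 40th percentile of signal or fit the 6 arrays of a time alone are also of this kind. Of 2006 recomputed values of called genes, 1747 kept direction and call and 259 kept direction but lost the call. The complement minus clotting difference at 8 h, −0.03, was 0.020 without corn oil replicate 2 at 8 h, alone or with corn oil replicate 1 at 72 h, and 0.00020 with Serping1 and Vtn counted as complement. At 8 h, all 37 genes lay below 0 in the fit and 36 did after quantile normalization, without both arrays numbered RC14, and without corn oil replicate 1, corn oil replicate 3 or DEHP replicate 3; at 72 h all 37 did in every alternative. The causes of the changes that follow were not tested, beyond the fewer arrays or stricter threshold that some alternatives use.

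Where 1 array was left out, the counts of called genes were 0 to 1 at 2 h, 4 to 11 at 8 h, 0 to 2 at 24 h, 7 to 20 at 72 h, 20 to 27 over the mean of the times, 2 to 8 for differences between times and 0 to 2 for times within corn oil. The medians were then 0.02 to 0.06, −0.26 to −0.18, −0.29 to −0.18 and −0.37 to −0.32 at 2, 8, 24 and 72 h, and complement minus clotting 0.05 to 0.10, −0.11 to 0.020, −0.11 to −0.051 and −0.21 to −0.13. The 2 h count was 0 with array weights, with the 6 arrays of the time alone, without the 4 or 5 pancreas-high arrays and at an adjusted p under 0.01. The 8 h count was 6 with median centring, 4 with the Actb difference as a covariate, 7 with the 6 arrays alone, 7 without corn oil replicate 2 at 8 h and corn oil replicate 1 at 72 h, and 5 at 0.01. The 24 h count was 4 after quantile normalization and 0 with the Actb covariate, the 6 arrays alone, each of the 3 added fits, or 0.01. The 72 h count was 7 without the 4 or 5 pancreas-high arrays and 7 at 0.01. Differences between times were called in 3 genes in the first added fit, in 1 without the 4 or 5 pancreas-high arrays and in 1 at 0.01, and times within corn oil in 1 gene above the 40th percentile of signal and 1 with the mean of all probe sets. Complement minus clotting was 0.11 at 2 h without the 4 pancreas-high arrays and 0.12 with Serping1 and Vtn counted as complement, and −0.091 at 8 h with array weights and −0.14 without the RC14 arrays. The median at 24 h was −0.18 with array weights.

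The replicate number as a replicate block gave 1, 10, 0 and 17 calls at 2, 8, 24 and 72 h and 22 over the mean, so it ended the 24 h call of F5 and changed no other count by over 1.5 times; 8 of 24 arrays correlated best with an array of their own number. Over all genes, calls split into 232 higher and 520 lower at 8 h, against 264 and 361 with median centring and 403 and 443 with quantile normalization. At 72 h the split was 205 and 555, against 244 and 347, and 290 and 285. In simulated data with 3 arrays per group, 64% of the genes lowered by 0.5 were called; smaller changes were not simulated.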

Other observations

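Corn oil replicate 3 and DEHP replicate 2 at 8 h carry the same RC number, 14, in their titles. The SD of the gene-by-gene difference between them was 0.295, and the smallest SD between any 2 arrays was 0.173. DEHP replicate 2 had the least lowered complement and clotting genes of the DEHP arrays at 8 h, with a centred mean of 0.02 for complement and −0.07 for clotting, where the other DEHP arrays had −0.16 and −0.17 for complement and −0.22 and −0.22 for clotting. Without both arrays, 10 genes were called at 8 h and the complement minus clotting difference was −0.14.

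Further probe sets, 13 in all, were present for 8 of the 37 genes. The sign of the DEHP difference was the same as in the probe set used for 8 of these 13 at 2 h, 12 at 8 h and 13 at both 24 h and 72 h.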
